A study of Homo sapiens with 6 samples.

Results

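Cells carry a set of proteins that detect or modify double-stranded RNA, and the transcripts of 9 of them were followed here after loss of Matrin3. The genes were OAS1, OAS2, OAS3, OASL, RIGI, IFIH1, EIF2AK2, MAVS and ADAR, taken by symbol from tables of 58884 gene IDs. All 9 had an ID. RNA came from HCT116, an established human colorectal cancer line, collected 48 h after the cells received siRNA. The siCTRL group (3 libraries) got a non-targeting control and the siMatrin3 group (3 libraries) a pool directed at Matrin3, a nuclear protein that binds RNA and acts in splicing. An siRNA is itself a short RNA duplex and both groups received such duplexes, so a response that the groups share cannot be seen in this comparison. Per the study's methods the control siRNA and the pool came from different suppliers. A response to a difference between these reagents cannot be told apart from one to loss of Matrin3. Each group is 1 line given 1 siRNA or 1 pool, and the study's methods describe the libraries as biological triplicates of ribosomal RNA-depleted total RNA.

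Several branches of innate immunity start from double-stranded RNA. OAS proteins that bind it make short oligoadenylates, second messengers that lead to RNA decay. RIG-I (gene RIGI, formerly DDX58) and MDA5 (gene IFIH1) are cytoplasmic helicases that bind viral duplexes and signal through MAVS, an adaptor on mitochondria, to interferon genes. PKR (gene EIF2AK2) is a kinase that stops translation by phosphorylating eIF2, and ADAR edits adenosine to inosine in duplexes, which keeps a cell's own RNA from being sensed. Matrin3 is known to sit with NONO and SFPQ in a complex that holds heavily edited RNA in the nucleus. Interferon raises most of these genes through the interferon-stimulated response element, a short promoter sequence bound by STAT and IRF proteins.

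That element was looked for in the promoters, because it is the sequence through which interferon acts on such genes. RefSeq promoters on GRCh38.p14, each from 250 bases before to 50 bases after a start site, had an entry for 7 of the 9 members, all but OAS2 and OASL. Its core was searched as GAAA, any 2 bases and GAAA again, on either strand and with overlapping matches counted. It occurred in 3.57% of 35116 promoters, and 4.38% of 27305 genes had a promoter with it. OAS3 held 2 matches, IFIH1 held 3, of which 1 pair overlap each other, and EIF2AK2 held 1. RIGI, MAVS, OAS1 and each of the 3 ADAR promoters held none. The 4 matches on the strand of the gene follow, read 5′ to 3′ on that strand, with the core in capitals and its first base counted from the start site. OAS3 and EIF2AK2 share the core letters of a match close to the start site.
OAS3, 143 bases before the start, chr12:112938326-112938345, plus strand: gaaacGAAACTGAAAgcagg
OAS3, 12 bases before the start, chr12:112938457-112938476, plus strand: ggcggGAAAACGAAAccaga
EIF2AK2, 6 bases before the start, chr2:37156972-37156991, minus strand: aagggGAAAACGAAActgag
IFIH1, 21 bases before the start, chr2:162318691-162318710, minus strand: gaatcGAAACAGAAAccaaa

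The gamma-activated site, the element of the response to interferon gamma, was searched as TTCNNNGAA. It occurred in 7.66% of promoters and in a promoter of 9.38% of genes. Among the members it occurred only in OAS1, where it had 1 match. A match is a string of letters and does not show that a factor binds there. Only these exact strings in these windows were searched, so a promoter without a match may still hold a response element.

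The libraries held 4556658 to 8400412 estimated reads. MATR3, the targeted gene, was left at 20.4% of its control level (345 ± 16.7 CPM in siCTRL and 70.6 ± 2.38 in siMatrin3, SD, n = 3 each; log2 fold change -2.29). CPM gives reads relative to a fixed library total after TMM scaling between libraries. Epithelial markers were present, with KRT8 at 724 CPM and EPCAM at 155 CPM in siCTRL, although CDH17, VIL1 and CEACAM5 were too low to test. The 8 epithelial markers together held 1563 to 1709 CPM in siCTRL and 1785 to 1885 in siMatrin3, and KRT19 and EPCAM of the 5 tested were higher, with KRT8 (0.18, adjusted p = 0.00789 by edgeR) as well when the replicate number was a block. The 8 fibroblast markers held 20.3 to 21.6 and 19.3 to 23.2 CPM, nearly all from COL1A1, and COL1A2, COL3A1, DCN, LUM and PDGFRA were at 0 in every library. The 10 leukocyte markers held 2.37 to 5.46 and 4 to 8.78 CPM, with 1 read of PTPRC in all libraries together and none of CD3E. Fewer cells with a transcript and less of it per cell cannot be told apart in such bulk libraries.

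The expression of the members differed widely before any knockdown. Levels between genes were compared per length, as deposited TPM, which scales each library's transcripts per base to a fixed total. In siCTRL, ADAR was highest at 77.4 ± 2.38 TPM (SD, n = 3). EIF2AK2 (24.3 ± 2.64 TPM) and MAVS (24.0 ± 0.959 TPM) followed and overlapped each other. OAS3 was next at 18.0 ± 4.16 TPM, and its highest library reached into the range of EIF2AK2. The helicases were lower, with IFIH1 at 4.29 ± 0.559 TPM and RIGI at 3.55 ± 0.251 TPM, which overlapped. OASL stood at 0.763 ± 0.264 TPM. OAS1 (0.16 ± 0.061 TPM) and OAS2 (0.107 ± 0.136 TPM) overlapped at the bottom.

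**Figure D1:**
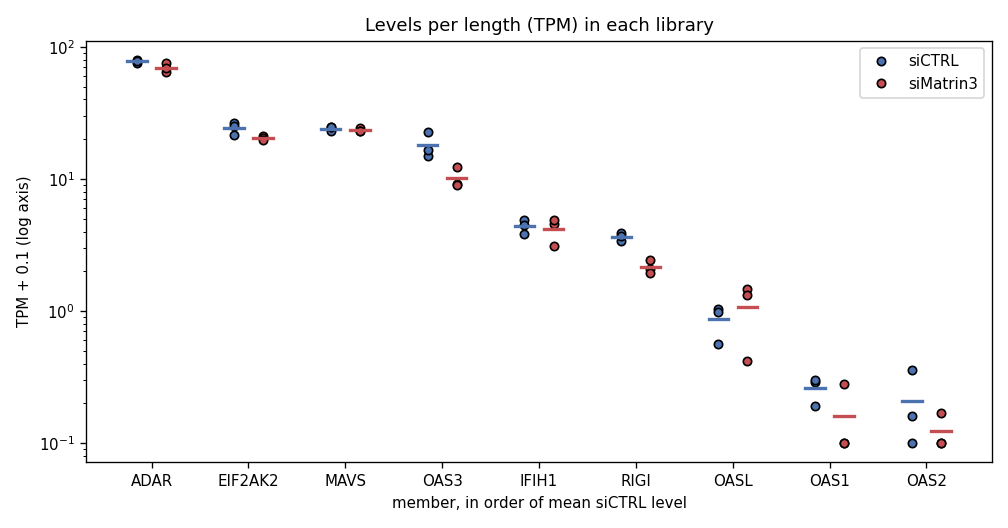
TPM plus 0.1 on a log axis (y) for the 9 members (x, in order of mean siCTRL level) in siCTRL and siMatrin3; points are the 3 libraries of each group and short lines the group means. ADAR lies at 64.4 to 79.8 TPM in all libraries, OAS1 and OAS2 at 0 to 0.26 TPM, and the groups separate for OAS3, RIGI and EIF2AK2. How many of all genes separate on TPM was not counted.

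The order in siMatrin3 was the same except that MAVS (23.5 ± 0.770 TPM) lay above EIF2AK2 (20.3 ± 0.716 TPM), here without overlap. OAS3 was at 10.1 ± 1.94 TPM and still above IFIH1 (4.08 ± 0.948 TPM). RIGI, at 2.04 ± 0.248 TPM, no longer overlapped IFIH1.

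Of the 9 members, 7 had enough reads to test, 2 fell and none rose after Matrin3 knockdown. OAS3, which responds to long duplexes, and RIGI were those that fell, each to about the same share of control. Over all 14334 genes tested, 5.18% were lower and 5.68% higher at an adjusted p under 0.05 by edgeR's quasi-likelihood test. With 2 of 7, the members lay above the share that was lower, but a count of this size from chosen genes was not tested. The counts of 2 and none were the same at an unadjusted p under 0.05 (12.3% of all genes lower, 12.8% higher), with DESeq2 (4.11% of all genes lower, 4.86% higher) and with the replicate number as a block in edgeR (7.37% lower, 8.39% higher). The median log2 fold change of the 7 was -0.03, against -0.0006 for all genes tested. OAS1 and OAS2 never exceeded 2 reads in a library.

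OAS3 (ENSG00000111331, chromosome 12, 112938051 to 112976460 on hg38, plus strand) was at 98.2, 87.7 and 90.9 CPM in siCTRL replicates 1 to 3 and at 55.4, 56.9 and 51.9 CPM in siMatrin3. All siMatrin3 libraries lay well under the lowest siCTRL library. The mean fell from 92.2 ± 5.38 to 54.8 ± 2.56 CPM (SD, n = 3 each), which left 59.4% of the control level. The log2 fold change was -0.75 ± 0.07 (SE, 95% interval -0.90 to -0.59, adjusted p = 5.44e-05 by edgeR). By its p-value the gene ranked 24 among all genes tested, and by the size of its fall it ranked 145 among the 743 genes that were lower. On the TPM scale it was at 22.7, 14.8 and 16.5 in siCTRL and 9.09, 12.3 and 8.83 in siMatrin3, again without overlap (exact two-sided permutation p = 0.1, the smallest that 3 against 3 libraries allow).

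RIGI (ENSG00000107201, chromosome 9, 32455302 to 32526208 on hg38, minus strand), the receptor for duplexes with a triphosphate end, was at 15.5, 14.9 and 15.7 CPM in siCTRL. In siMatrin3 it was at 9.33, 10.6 and 8.42 CPM, below every siCTRL library. The mean fell from 15.4 ± 0.397 to 9.46 ± 1.11 CPM (SD, n = 3 each), or to 61.5% of control. Its log2 fold change was -0.70 ± 0.15 (SE, 95% interval -1.02 to -0.39, adjusted p = 0.00844 by edgeR), from 54 to 127 reads per library. The TPM values were 3.79, 3.29 and 3.57 in siCTRL against 1.97, 2.32 and 1.84 in siMatrin3 (exact permutation p = 0.1). A later annotated gene, ENSG00000288684, shares 4471 exon bases with RIGI on the same strand and was not used here.

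Neither call held in every setting. With RSEM's effective lengths as an offset, which correct each library for its estimated isoform mix, OAS3 was at -0.72 (adjusted p = 0.0657 by edgeR) and RIGI at -0.68 (adjusted p = 0.0963), and on log2(TPM + 1) with limma they were at -0.77 and -0.58 (adjusted p = 0.0845 and 0.131). On log2(TPM + 0.1) the adjusted p was 0.0891 and 0.145. No member passed in these 3 settings, in which far fewer of all genes passed, 0.726%, 0.823% and 0.712% as lower and 0.886%, 0.216% and 0.209% as higher. The estimated effective length of OAS3 ranged from 4448 to 5962 bases in siCTRL and from 4369 to 5912 in siMatrin3, so that it varied within groups and overlapped between them. For RIGI it was 4216 to 4579 and 4278 to 4579 bases.

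**Figure D2:**
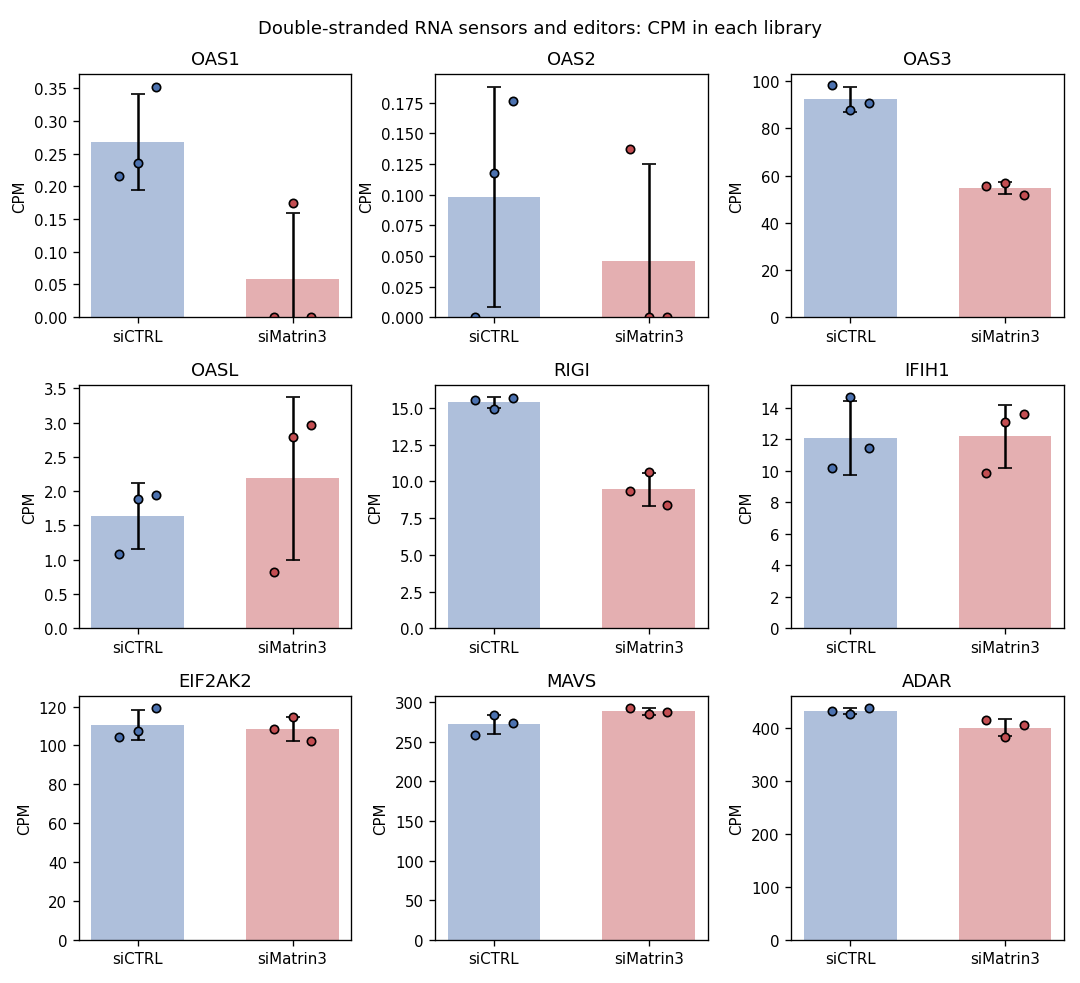
One panel for each of the 9 members, with CPM on a y axis that starts at 0 and is scaled per panel. Bars give the group mean, whiskers the SD and points single libraries (3 per group). OAS3 and RIGI were lower in all 3 siMatrin3 libraries by more than the spread, ADAR was slightly lower and MAVS slightly higher, and the OAS1 and OAS2 panels rest on at most 2 reads in a library.

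The rest of the OAS family was scarce. OAS1, OAS3 and OAS2 lie side by side on the plus strand of chromosome 12 within 105868 bases (112905856 to 113011723 on hg38). OAS3, the gene in the middle, held 327 to 746 reads per library. OAS1 (ENSG00000089127) held 1, 2 and 2 reads in siCTRL and 0, 1 and 0 in siMatrin3, and OAS2 (ENSG00000111335) held 0, 1 and 1 against 1, 0 and 0. All of these are under a floor of 3 reads, which stood for 0.353 to 0.647 CPM per library and covers counting error only. No fold change is given for OAS1 or OAS2. The genes on each side of the cluster were also near 0, with 0 to 3 reads of RPH3A and 1 to 5 of DTX1 per library, both picked for their position. OASL (ENSG00000135114), a relative without enzyme activity that assists RIG-I, held 5, 16 and 11 reads in siCTRL and 6, 16 and 19 in siMatrin3. The OASL groups overlapped, and its log2 fold change of 0.35 had a 95% interval from -0.65 to 1.36 (adjusted p = 0.695 by edgeR). OAS3 made up 97.4% to 98.7% of the reads of the 4 OAS genes in siCTRL and 94.6% to 98.3% in siMatrin3.

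IFIH1 (ENSG00000115267, chromosome 2, 162267074 to 162318684 on hg38, minus strand), the receptor for long duplexes, was at 10.1, 14.7 and 11.4 CPM in siCTRL and at 9.88, 13.1 and 13.6 CPM in siMatrin3. The groups overlapped over most of their range. The log2 fold change was -0.03 ± 0.18 (SE, 95% interval -0.42 to 0.36, adjusted p = 0.944 by edgeR). Within a library, RIGI had 1.53, 1.02 and 1.37 reads for each read of IFIH1 in siCTRL, and 0.944, 0.813 and 0.621 in siMatrin3. Every siMatrin3 ratio lay below every siCTRL ratio, and a ratio does not depend on the scaling between libraries. The closest, in siCTRL replicate 2 and siMatrin3 replicate 1, rest on 127 against 125 reads and 68 against 72. Reads are not corrected for length, so a ratio of 1 does not mark equal levels. On the TPM scale the mean of IFIH1 was above that of RIGI in siCTRL (4.29 and 3.55) and siMatrin3 (4.08 and 2.04). Whether the changes of the 2 helicases differ was not tested otherwise.

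MAVS (ENSG00000088888, chromosome 20, 3846799 to 3876123 on hg38, plus strand), the adaptor below both helicases, was at 259, 284 and 274 CPM in siCTRL and 293, 285 and 288 CPM in siMatrin3. Its siMatrin3 libraries lay just above the highest siCTRL library. The log2 fold change of 0.08 ± 0.05 did not pass (SE, 95% interval -0.03 to 0.19, adjusted p = 0.368 by edgeR). On TPM values the groups overlapped, and the log2 difference was -0.03 (adjusted p = 0.904 by limma).

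EIF2AK2 (ENSG00000055332, chromosome 2, 37099210 to 37157522 on hg38, minus strand) encodes PKR and was at 104, 108 and 119 CPM in siCTRL and 109, 115 and 102 CPM in siMatrin3. These ranges overlapped. Its log2 fold change was -0.03 ± 0.07 (SE, 95% interval -0.18 to 0.12, adjusted p = 0.853 by edgeR). On the TPM scale, which corrects for length but has no TMM scaling, the picture differed. EIF2AK2 was at 26.5, 21.4 and 25 TPM in siCTRL and 21, 20.3 and 19.6 TPM in siMatrin3, which did not overlap (exact permutation p = 0.1). The share of all genes that separate on TPM was not counted. Its estimated effective length was 4050, 5077 and 4989 bases in siCTRL and 5000, 5346 and 4873 in siMatrin3, shortest in siCTRL replicate 1. The limma fit on log2(TPM + 1) gave -0.24 (adjusted p = 0.284). The length offset, which keeps the TMM scaling, gave -0.14 (adjusted p = 0.496 by edgeR). EIF2AK2 shares 35 exon bases with GPATCH11 (57 to 98 reads) and 401 with the pseudogene ARL14EPP1 (0 to 4.09 reads), both on the opposite strand.

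ADAR (ENSG00000160710, chromosome 1, 154581695 to 154628013 on hg38, minus strand), the editing enzyme, had the most reads of the members, 2003 to 3636 per library. It was at 432, 427 and 439 CPM in siCTRL and at 416, 384 and 405 CPM in siMatrin3, lower in all 3. The log2 fold change of -0.11 ± 0.05 did not pass (SE, 95% interval -0.22 to 0.00056, adjusted p = 0.201 by edgeR). Gene totals cannot separate the longer, interferon-induced ADAR protein form from the shorter constitutive one. CPM did not overlap between groups for 4 of the 7 tested members, lower for OAS3, RIGI and ADAR and higher for MAVS. Over all genes tested, 14.7% did not overlap and were lower, and 15% were higher.

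**Figure D3:**
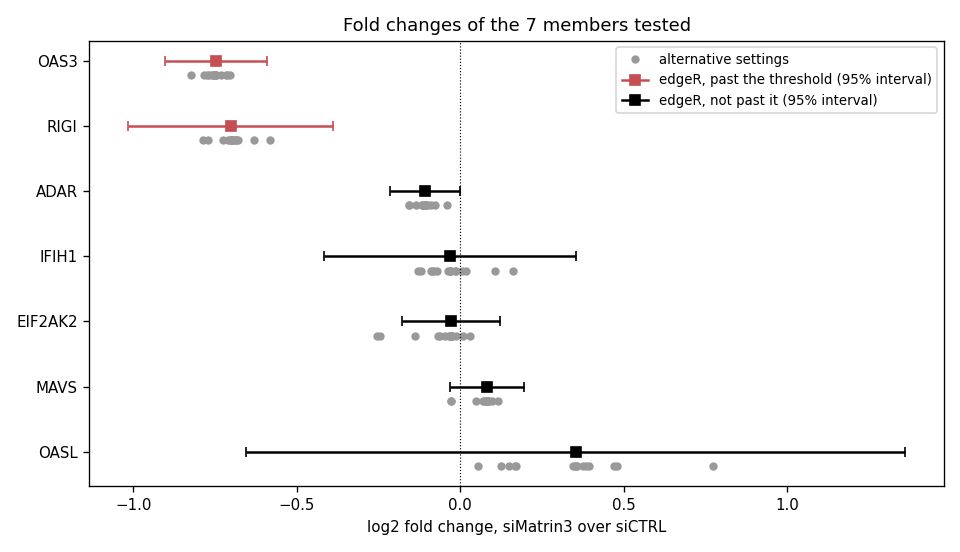
Log2 fold change of siMatrin3 over siCTRL (x axis) for the 7 members tested; squares are edgeR estimates with 95% intervals, red where past the threshold, and grey points the values under the other settings. The grey points of OAS3 span -0.82 to -0.70 and those of RIGI -0.79 to -0.58, while those of IFIH1, EIF2AK2 and MAVS lie on both sides of 0.

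OAS3 and RIGI fell, and of this pair OAS3 held matches to the searched core of the response element in its promoter and RIGI held none. IFIH1 and EIF2AK2 held matches and did not pass the test. The profiles most like those of OAS3 and RIGI over the 6 libraries were then sought among 11455 genes whose CPM averaged 5 or more, by the root mean square distance of log2 CPM around each gene's mean. For OAS3 these were KIF23, a kinesin (distance 0.0546, log2 fold change -0.77), TFCP2L1, a transcription factor (0.0556, -0.71), and ACBD5, a peroxisome protein (0.0672, -0.73). For RIGI they were the RNA-binding protein gene RBMS1 (distance 0.0429, log2 fold change -0.66), TFCP2L1 again (0.0523) and SPATA7 (0.0664, -0.80, adjusted p = 0.0530 by edgeR). None of them is a double-stranded RNA sensor. A search by profile returns genes that fell alike by construction, and whether these genes share a function with the members was not tested.

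Genes that work beside the members were read from 9 lists. Of 93 partner genes tested, 10 rose (10.8%), 4 fell (4.30%) and 79 did not pass. The median of their log2 fold changes was 0.03. The adjusted p was under 0.05 for 5.68% and 5.18% of all genes in these directions.

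In the OAS branch, ABCE1, a ribosome recycling factor, rose from 234 to 272 CPM (log2 change 0.22, SE 0.05, adjusted p = 0.0175 by edgeR). Leaving out the third siCTRL library or the siMatrin3 library of replicate 2 or 3 ended this call (adjusted p up to 0.0851). PDE12, which degrades the oligoadenylates, was at 0.09 and did not pass.

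Among 15 tested partners of the RIG-I-like receptors, 1 rose and 1 fell. PPP1CC, a phosphatase subunit that keeps both helicases active, rose (0.21, adjusted p = 0.0479 by edgeR), while the kinase gene RIOK3 fell (-0.39, adjusted p = 0.0442). Both were near the threshold. DESeq2 called PPP1CC and not RIOK3, PPP1CC passed only without siCTRL replicate 2 when 1 library was left out (adjusted p otherwise up to 0.200), and RIOK3 only without siCTRL replicate 2 or siMatrin3 replicate 2 (otherwise up to 0.185). With the replicate block the helicase gene DHX9 passed as higher too (0.14, adjusted p = 0.0370 by edgeR), against an adjusted p of 0.0966 without it. On the TPM scale DHX9 went the other way, from 120 ± 2.91 in siCTRL to 111 ± 3.72 in siMatrin3 (SD), and the groups did not overlap. Of 22 tested genes of the relay from MAVS to IRF3 and NF-kappaB, TOMM70, a mitochondrial import receptor that MAVS can engage, rose (0.28 on the log2 scale, 96.5 to 117 CPM, adjusted p = 0.01 by edgeR) and none fell, also with DESeq2 and at an unadjusted p under 0.05. TOMM70 did not pass with the length offset or on TPM, where its groups overlapped. The adaptor gene TRADD was at 0.42 (adjusted p = 0.227). TBK1 (-0.12) and IRF3 (0.17), the kinase and transcription factor at the end of the relay, did not pass.

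Of 16 tested genes of PKR and eIF2 control, 4 rose and 1 fell. The median of the 16 was 0.10 on the log2 scale. EIF2S3, a subunit of eIF2, rose from 249 to 316 CPM (log2 change 0.34, SE 0.06, adjusted p = 0.00233 by edgeR). EIF2AK1, another eIF2 kinase, rose from 152 to 186 CPM (0.29, adjusted p = 0.00311). DNAJC3, an inhibitor of PKR (0.26), and EIF2S1, the subunit that PKR phosphorylates (0.20), rose as well. PPP1R15B, which directs a phosphatase to eIF2, fell (-0.19, adjusted p = 0.0352). EIF2S3 and EIF2AK1 also passed with DESeq2 and without any 1 library. DNAJC3, EIF2S1 and PPP1R15B did not pass with DESeq2, and leaving out 1 library ended the call in 4, 5 and 6 of the 6 refits (adjusted p up to 0.102, 0.136 and 0.109). With the replicate block EIF2S2, the remaining eIF2 subunit, passed as higher as well (0.19, adjusted p = 0.0269 by edgeR). With the length offset EIF2S3 alone of the 5 passed, and on TPM none did.

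**Figure D4:**
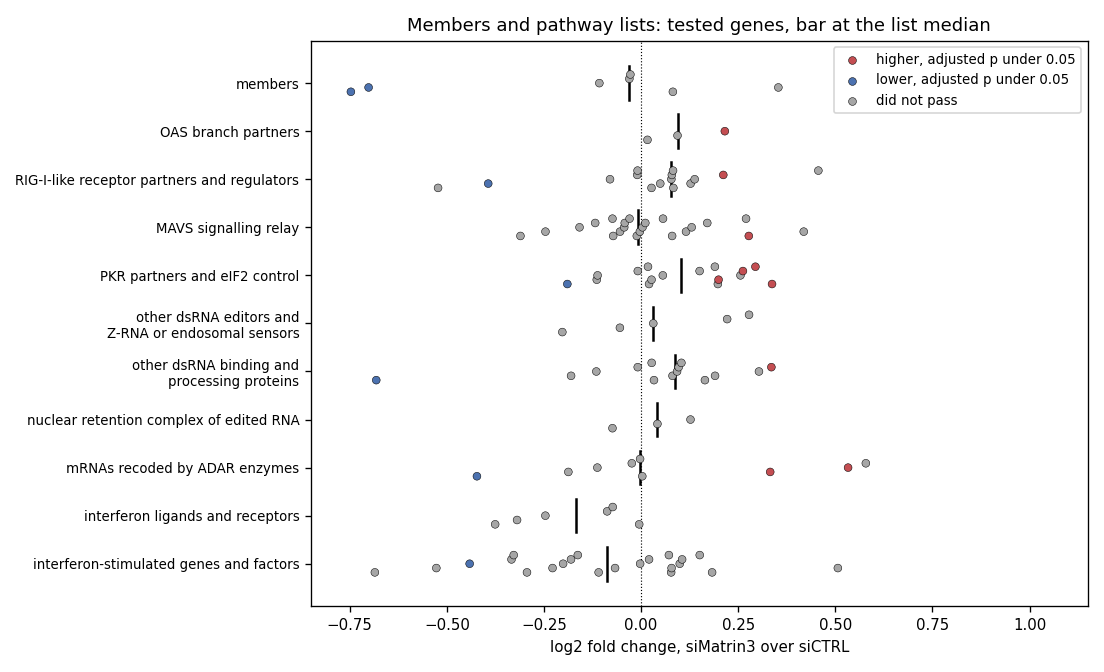
Log2 fold change of siMatrin3 over siCTRL (x axis) for every tested gene of the members and of 10 lists (rows, MATR3 left out); points are genes, coloured by direction where the adjusted p was under 0.05, and black bars list medians. OAS3 (-0.75) and RIGI (-0.70) lie at the far left with AGO2 (-0.68) and IRF9 (-0.69, not past the threshold). Of PKR and eIF2 control, 4 genes are coloured as higher and 1 as lower.

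Editing and duplex handling were compared next. Of the other editors and sensors, ADARB1, the relative of ADAR, was at -0.20 (adjusted p = 0.394), MLKL, a cell death effector below a Z-RNA sensor, at 0.22 (adjusted p = 0.319) and TLR3, the endosomal sensor, at -0.05, and none of 5 tested passed in either direction, nor with DESeq2 or at an unadjusted p under 0.05. ADARB2, ADAD1 and ADAD2 were at 0 in all libraries. NONO (0.04), SFPQ (-0.07) and PSPC1 (0.13), which share a complex or paraspeckles with Matrin3, did not pass either, and none had an unadjusted p under 0.05 or a call by DESeq2. Of 9 tested mRNAs that ADAR enzymes recode, FLNA fell from 900 to 672 CPM (log2 change -0.42, SE 0.07, adjusted p = 0.00246 by edgeR), whereas BLCAP (0.53) and COG3 (0.33) rose. COG3 did not pass with DESeq2 and passed only without siMatrin3 replicate 3 when 1 library was left out (adjusted p otherwise up to 0.128), and neither rise passed with the length offset or on TPM. These are levels and do not show editing. AZIN1, a well-known editing target, was at -0.11 (adjusted p = 0.254). Of 14 tested proteins that bind or process duplexes, AGO2, the slicer of RNA interference, fell from 579 to 361 CPM (log2 change -0.68, SE 0.07, adjusted p = 5.78e-05) and ZFR, a zinc finger protein that binds RNA, rose (0.34, adjusted p = 0.00206). With the replicate block the duplex-binding gene STRBP passed as higher (0.29, adjusted p = 0.0287 by edgeR) and DICER1, the enzyme that cuts duplexes into small RNAs, as lower (-0.18, adjusted p = 0.0255). AGO2 missed the threshold with the length offset and on TPM.

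The output of these sensors was low in both groups. IFNB1 and IFNL1 had 1 read each over the 6 libraries, and IFNL2 and IFNL3 had none. Of the 6 receptor and kinase genes tested, none passed in either direction (1 was lower at an unadjusted p under 0.05 and none by DESeq2), and all 6 log2 fold changes were below 0, from -0.38 for IL10RB to -0.0049 for JAK1. IFNLR1, a receptor chain for interferon lambda, had the lowest p (-0.32, adjusted p = 0.156 by edgeR). Of 40 interferon-stimulated genes, 18 were too low to test, including IFI44L and CXCL10 at 0 reads and MX1 at 22 reads in all. Of the 22 tested, DTX3L, a ubiquitin ligase, fell from 24.3 to 17.9 CPM (log2 change -0.44, SE 0.12, adjusted p = 0.0275 by edgeR), while none rose. At an unadjusted p under 0.05, 2 of the 22 were higher and 3 lower, against 12.8% and 12.3% of all genes, and DESeq2 called none. DTX3L passed only without siMatrin3 replicate 3 when 1 library was left out (adjusted p otherwise up to 0.103). With the replicate number as a block, UBE2L6, the conjugating enzyme for ISG15, passed as higher (0.52, adjusted p = 0.0258 by edgeR), against an adjusted p of 0.0604 without it. ISG15 (0.11), which interferon raises in most cells, did not pass, and IRF9 was at -0.69 with 2.51 CPM in siMatrin3 (adjusted p = 0.203). The median of the 22 was -0.09.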

How the data were processed

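Ribosomal RNA-depleted total RNA of 3 siCTRL and 3 siMatrin3 libraries was analysed. Per the labels, the authors processed reads with cutadapt, TopHat and RSEM on hg19. The deposited tables give an expected count per gene, not normalized between libraries, a TPM scaled within each library by the authors' RSEM runs, and an effective length. For the annotation release and strand setting, the sources used here give nothing. The labels name a stranded mRNA kit and the study's methods a directional ribosomal RNA depletion kit.

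IDs were matched to GENCODE 44 on hg38 (58472 of 58884), so gene positions are those of hg38. Expected counts were rounded, filtered with filterByExpr (minimum count 10, minimum total 15), scaled by TMM and tested with edgeR 4.0.16 (quasi-likelihood, R 4.3.3), with Benjamini-Hochberg adjustment over all genes and a two-sided threshold of 0.05. SE is the fold change over the square root of F. The fit was checked on simulated data. Total counts were 4556658 to 8400412 per library, and the biological coefficient of variation was 6.44%. TPM values of single genes were compared by an exact permutation test.

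The members and lists were chosen with earlier results of these data known. Named genes are MATR3, all members, the list genes that passed or had the lowest p, and the nearest profiles. Other list genes (KRT8, COL1A1 and the other markers, PTPRC, CD3E, TBK1, IRF3, TLR3, AZIN1, NONO, SFPQ, PSPC1, the interferon genes, JAK1, ISG15, IRF9, MX1, IFI44L and CXCL10) genes called only in an alternative (DHX9, EIF2S2, STRBP, DICER1, SAMD9), and RPH3A and DTX1 were named after their values were seen. Some genes of the lists are not reported here. Deviations from the group means correlated at 0.164, 0.153 and 0.153 between same-numbered libraries and at or below -0.0384 between others. Centring on the mean of 3 libraries ties the negative values to the positive ones, so they add no separate evidence. From the data alone, the numbers were taken as pairs in the replicate block. The study's methods name no pairing, and the fit without a block is the main one. Libraries of a group differed by more than sampling noise, with a chi-square of 2.67 to 4.39 for each degree of freedom. Alternatives were RLE and upper quartile scaling, other filters, leaving out mitochondrial, small RNA and unnamed chromosome 21 genes, effective lengths as an offset, DESeq2 1.42.0, limma 3.58.1 on log2(TPM + 1) and log2(TPM + 0.1), a replicate block, a threshold of 0.01 and leaving out each library.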

Additional observations from a re-analysis of the deposited data

How the results depend on the processing

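OAS3 and RIGI kept their direction in all 16 alternatives and their calls in 13, with log2 fold changes from -0.82 to -0.70 and from -0.79 to -0.58. The calls were lost with effective lengths as an offset and on both TPM scales, where 0 members were lower. There OAS3 had an adjusted p of 0.0657 to 0.0891 and RIGI of 0.0963 to 0.145. The cause was not tested. No member rose in any alternative, and 2 fell without any 1 library. IFIH1 was above 0 with effective lengths (0.018), with the replicate block (0.0056) and without siCTRL replicate 2 (0.16) or siMatrin3 replicate 1 (0.11), with a range of -0.13 to 0.16 without 1 library. EIF2AK2 was above 0 without siCTRL replicate 3 (0.030) or siMatrin3 replicate 3 (0.0093), with a range of -0.068 to 0.030. MAVS was below 0 on the TPM scales (-0.027 and -0.028). None of these values passed the threshold.

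Over all genes, 814 were higher and 743 lower. These became 127 and 104 with effective lengths, 31 and 118 on log2(TPM + 1), 30 and 102 on log2(TPM + 0.1), 294 and 295 at a threshold of 0.01, 548 and 463 with DESeq2, and 350 to 631 and 357 to 625 without 1 library, fewest without siCTRL replicate 3. Of the partners, 10 rose and 4 fell. These became 2 and 1 with effective lengths, 0 and 1 on both TPM scales, 4 and 2 at 0.01 and 7 and 2 with DESeq2. Without 1 library, 5 to 8 rose and 2 to 4 fell, with 5 rising without siCTRL replicate 3, 6 without siMatrin3 replicate 2 or 3, and 2 falling without siCTRL replicate 1 or 3 or siMatrin3 replicate 1 or 3. DTX3L was lost with effective lengths, DESeq2, both TPM scales, a threshold of 0.01, and without any siCTRL replicate or siMatrin3 replicate 1, which left 0 interferon-stimulated genes lower. Without siMatrin3 replicate 2 it was lost as well, and SAMD9 was the 1 lower (-0.53, adjusted p = 0.0323 by edgeR). UBE2L6 made 1 higher with no filter, with the replicate block and without siCTRL replicate 2 (0 to 1 over the libraries left out). The replicate block gave 1203 genes higher and 1056 lower, 2 members lower, and 13 partners higher and 5 lower, and it changed no call of a member. The differences of mean TPM without 1 library ranged for OAS3 from -9.50 to -5.56 and for RIGI from -1.65 to -1.39.

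Depth limits OAS1, OAS2 and OASL, and 3 libraries a group allow no permutation p under 0.1.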

Other observations

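Earlier results of these data had found certain strings of 7 bases more often in the 3' UTRs of genes that changed after siMatrin3, and these were counted in the members. In the canonical GENCODE transcripts, the first pair of strings, of which one is ATTACAA and the other is TTACAAA, occurred in 25.7% of 12132 tested genes. The second pair, of which one is GAAGACT and the other is AAGACTA, occurred in 18.4%. The 3' UTRs of OAS3 (3278 bases) and RIGI (1820 bases), the members that fell, held none of these strings. EIF2AK2 held 1 match to each pair in 8063 bases, and MAVS held 2 matches to the first pair and 1 to the second in 9971 bases. Both were among the members that did not pass. The remaining 5 members held none. AGO2, which is not a member and also fell, held 1 TTACAAA in 11888 bases. The strings were chosen from these same data, and whether they bear on any of these changes was not tested.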
